A study of Mus musculus with 2 samples.

Results

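Heat shock proteins and their J-domain partners were compared between WT and *Gde5* skKO gastrocnemius (GAS) muscle. The group held every probe that is not a control and whose gene name on the array begins with Hspa, Hspb, Hspd1, Hspe1, Hsph1, Hsp90, Hspca, Dnaja, Dnajb, Dnajc or Bag with a digit, or is Cryab. This gave 68 of 27591 gene names, measured by 131 of 41174 probes. The measurements come from 2 dye-swapped Agilent arrays, each of which hybridized WT and *Gde5* skKO RNA to the same spots. *Gde5* skKO mice carry a floxed *Gde5* (*Gpcpd1*) gene and Cre under the human α-skeletal actin promoter (HSA-Cre), which directs the deletion to muscle fibres and leaves the gene in the other cells of the muscle. Both genotypes were male C57BL/6 mice, 15 weeks old, on normal diet. The labels call the controls wild-type, and the methods use *Gde5* flox/flox littermates without Cre as controls in several physiological tests. The labels name 5 mice per genotype but say neither whether RNA was pooled nor whether both arrays held the same RNA. They also do not say whether the mice were fasted or given glucose. The paper reports microarray results from muscle after a glucose injection, and compares them with additional transcriptomic data from fasting. Neither the labels nor the paper assign the 2 arrays to these conditions, so whether both arrays share a condition is not known.

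Heat shock proteins are chaperones, which hold unfolded proteins and help them to reach or regain their shape. Hsp70 proteins bind and release clients in a cycle driven by ATP, J-domain proteins bring clients and start the cycle, and BAG proteins end it by releasing the nucleotide. Small heat shock proteins need no ATP, and several of them are abundant in muscle, where they bind actin, desmin and titin. Many of these genes are induced by heat shock transcription factors, which bind short inverted repeats called heat shock elements in the promoters.

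The upstream sequences of the genes that were higher in *Gde5* skKO muscle are shown because they are the region that such factors would read. They are the 250 bases before the gene start in the RefSeq promoter table on GRCm38.p6, written 5′ to 3′ on the strand of the gene. The capitals mark matches to a heat shock element of a pair of units, GAANNTTC or TTCNNGAA, each of which reads the same on both strands.
Hspa1a, chr17:34972157-34972406, minus strand: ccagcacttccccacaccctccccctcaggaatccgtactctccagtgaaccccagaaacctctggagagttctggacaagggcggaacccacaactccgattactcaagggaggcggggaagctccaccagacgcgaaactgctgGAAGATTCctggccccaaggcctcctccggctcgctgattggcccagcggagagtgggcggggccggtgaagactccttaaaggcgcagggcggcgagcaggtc
Hspb1, chr5:135887669-135887918, plus strand: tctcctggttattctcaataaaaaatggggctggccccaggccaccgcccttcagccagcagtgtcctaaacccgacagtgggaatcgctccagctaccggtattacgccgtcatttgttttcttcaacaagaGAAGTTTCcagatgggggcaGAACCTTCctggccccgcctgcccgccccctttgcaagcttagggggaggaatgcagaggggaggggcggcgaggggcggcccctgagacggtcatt
Hspb6, chr7:30553051-30553300, plus strand: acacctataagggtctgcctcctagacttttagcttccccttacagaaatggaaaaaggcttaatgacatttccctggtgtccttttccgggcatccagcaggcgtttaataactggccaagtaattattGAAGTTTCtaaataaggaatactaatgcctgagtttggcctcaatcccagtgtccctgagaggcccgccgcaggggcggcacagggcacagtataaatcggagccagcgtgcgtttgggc
Hspb7, chr4:141420529-141420778, plus strand: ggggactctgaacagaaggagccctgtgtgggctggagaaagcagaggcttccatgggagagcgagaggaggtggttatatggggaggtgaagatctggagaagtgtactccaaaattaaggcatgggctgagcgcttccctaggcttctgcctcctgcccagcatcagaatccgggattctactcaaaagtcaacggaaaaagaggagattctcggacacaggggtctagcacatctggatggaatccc

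The match began 104 bases before the start of *Hspa1a*. *Hspb1* held 2 matches, beginning 117 and 97 bases before its start. *Hspb6* has 2 starts in the table, and the match lay 120 bases before the start shown, which is inside the longer gene model, while the window of the other start had none. The *Hspb7* window had no match. Over the full windows of 300 bases, which also hold 50 bases after the start, 15.1% of all 32851 windows and 17.0% of all 27025 genes had a match. Among the members, 55 of 68 genes had a window, and 14 of them (25.5%) had a match. This was 3 of the 4 genes that were higher and 10 of the 46 tested genes that were not called. Genes tested but not called and without a window included *Cryab*, *Hspb2*, *Hspa8*, *Hspa9*, *Hsp90aa1* and *Hsp90ab1*. The genes not called are thus incompletely covered, while all 4 that were higher had a window. Elements with 3 alternating units were found in 0.662% of all genes and in 3 members, *Hspd1*, *Hspe1* and *Dnajb6*, none of which was called. A match is a match of letters and does not show that a factor binds there.

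A probe was tested where 1 of its channels or both stood well above background, on array 1 and on array 2 alike, and it was called when the p-value of Agilent Feature Extraction was under 0.05 on both arrays with ratios in the same direction. All ratios below are log2 ratios of *Gde5* skKO over WT. The p-value comes from an error model of the spots within a hybridization and says nothing of the spread between mice. No test across mice was made, and precision is limited to what 2 arrays give. Of the 131 member probes, 1 was left out for an outlier mark, 23 were too dim and 107 were tested, which stand for 62 genes. The 6 genes with no tested probe were *Dnajb3*, *Dnajb7*, *Dnajb13*, *Dnajc5b*, *Dnajc5g* and *Dnajc6*. The checks of the arrays were short. Of the *Gde5* probes, 3 had ratios between -2.59 and -3.29 on the arrays, and the 4th had -0.05 and -0.47. None of 10 skeletal muscle marker genes was called, and *Ckm*, *Acta1* and the other 8 were all measured. *Gde5* skKO RNA was well above background in 53.2% and 44.6% of spots on array 1 and array 2, and WT RNA in 45.6% and 47.4%.

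Members of 4 genes were higher in *Gde5* skKO muscle, and none was lower. These were *Hspa1a*, the stress-inducible cytosolic Hsp70, and the small heat shock proteins *Hspb6*, *Hspb1* and *Hspb7*. They rested on 7 probes with mean ratios between 0.58 and 1.27, up to a 2.41-fold difference. The 7 were 6.54% of the tested member probes, beside 1.49% of all 19094 tested probes called higher. By gene, 4 of the 62 tested members were higher, beside 265 of all 13599 tested genes, of which 273 were lower. None of the 107 was called lower, beside 1.58% of all probes. Another 2 member probes passed the threshold on both arrays in opposite directions, beside 1.68% of all probes. By limma's moderated test over both arrays at an unadjusted p under 0.05, 14 member probes were higher and 3 lower, beside 4.07% and 4.02% of all probes, and after adjustment 5 were higher, beside 0.209%, again of *Hspa1a*, *Hspb1*, *Hspb6* and *Hspb7*. That test takes the arrays as separate samples, which the labels do not say.

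**Figure D1:**
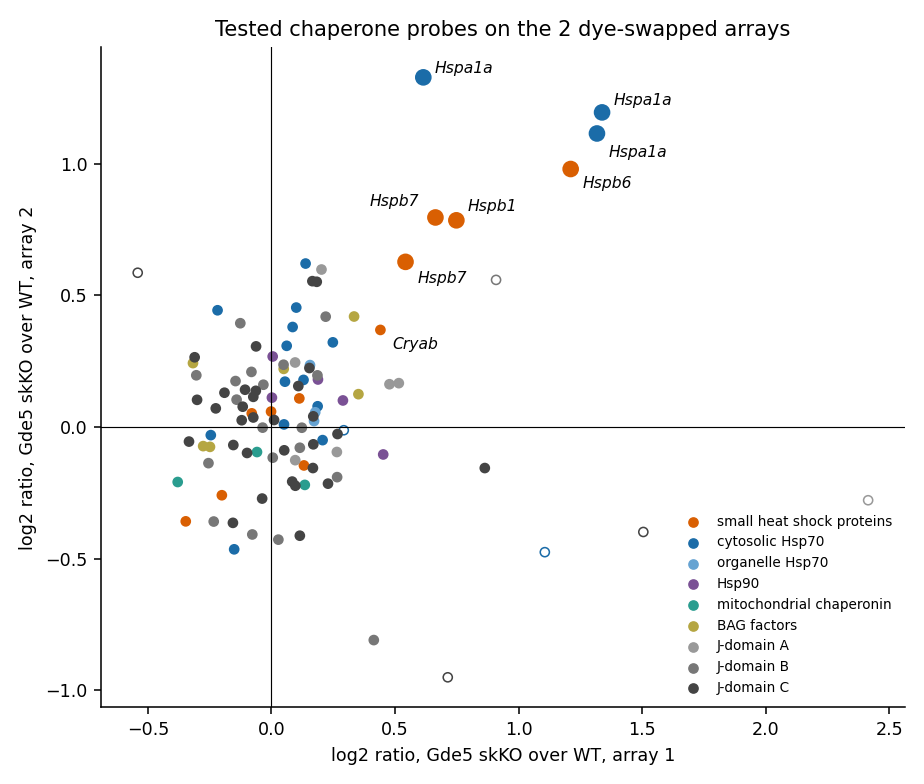
Log2 ratio of *Gde5* skKO over WT on array 1 (x axis) and array 2 (y axis) for the 107 tested chaperone probes, coloured by role. Large points are the 7 probes called higher, which lie between 0.54 and 1.34 on both axes, and open points are the 7 probes not well above background in at least 1 of the 4 channels.

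The other 100 tested probes had a median mean ratio of 0.04, against 0.02 over all tested probes, and with the 7 included the median was 0.06. Of the 107 probes, 42 were higher on both arrays, 17 lower on both and 48 in opposite directions. Over all tested probes, 29.3% were higher on both, 24.5% lower on both and 46.2% opposite, beside 39.3%, 15.9% and 44.9% of the members. Without the 7 called probes the member shares were 35%, 17% and 48%.

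The cytosolic Hsp70 proteins include *Hspa1a*, which held the 2 highest mean ratios of the tested members, although dim J-domain probes had higher ratios on array 1 alone. *Hspa1a* has 4 probes on the minus strand of chromosome 17 in the array annotation, which uses the assembly mm8. The probe from 34577907 to 34577966 gave a processed signal of 2465 in *Gde5* skKO and 975 in WT on array 1, and of 2505 and 1094 on array 2. Its ratios were 1.34 (error 0.24) and 1.20 (error 0.23), where the error is the one that Feature Extraction gives each ratio. The *Gde5* skKO signal was above the WT signal on both arrays, whichever dye it carried. The overlapping probe from 34577877 to 34577936 gave signals of 5468 against 2195 and of 5838 against 2695, with ratios of 1.32 and 1.12. A dimmer probe from 34578229 to 34578288 gave 213 against 139 and 239 against 95.3, with ratios of 0.61 and 1.33. With background correction by normexp and loess normalization its mean ratio was 0.32 in place of 0.97, while the brighter probes kept means of 1.11 and 1.08. The probe from 34579637 to 34579696 was not well above background in any channel. The near-identical gene *Hspa1b* lies 10120 bases from *Hspa1a* on GRCm38.p6 and has no probe under its own name, so the RNA of which copy was measured cannot be told apart.

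**Figure D2:**
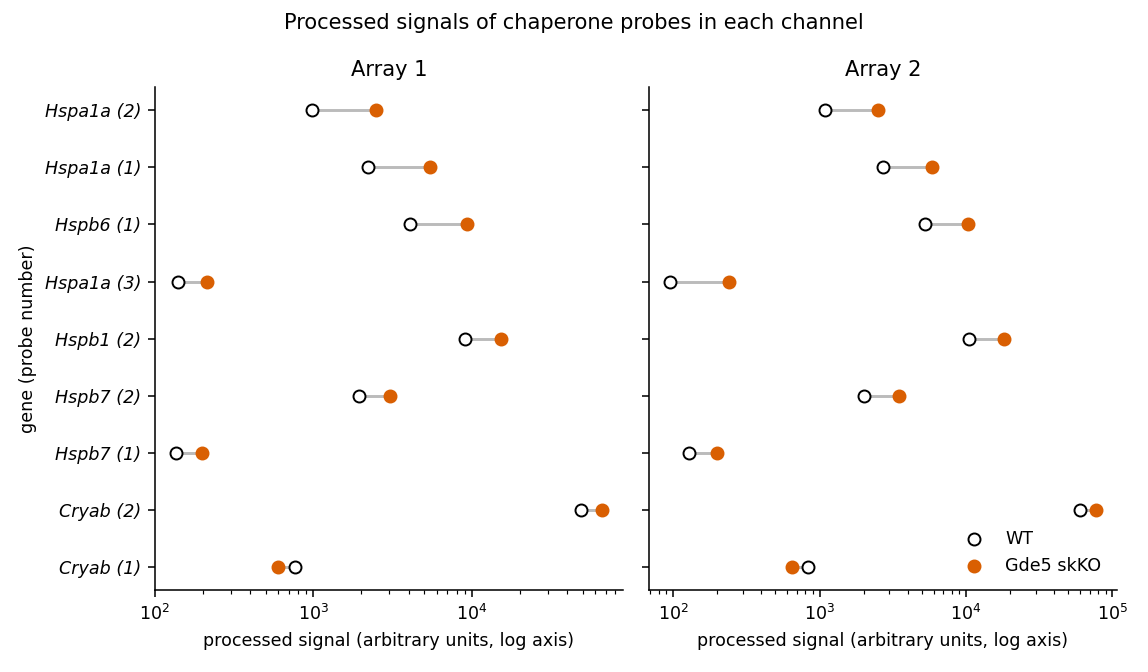
Processed signal of WT (open) and *Gde5* skKO (filled) RNA on each array, on a log axis in arbitrary units, for the 7 probes called higher and both *Cryab* probes. A number after the gene tells its probes apart, in order of position. In the 7 called probes *Gde5* skKO lay right of WT on both arrays, while the 2 *Cryab* probes moved in opposite directions.

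The other cytosolic Hsp70 genes were not called. *Hspa1l*, which begins 546 bases beyond the start of *Hspa1a* on the other strand and is known from the testis, had ratios of 0.10 and 0.45. *Hspa8*, the constitutive Hsc70, had ratios of 0.14 and 0.62 in a probe from 40554128 to 40554187 on chromosome 9, and of 0.13 and 0.18 in a brighter one. The former passed the threshold on array 2 only. *Hspa4*, an Hsp110-type exchange factor, had 3 probes with signal in all channels and ratios from -0.46 to 0.38, so that they did not share a direction. *Hspbap1*, listed with them but known to bind *Hspb1* and no Hsp70 itself, had -0.25 and -0.03. Without *Hspbap1* but with the called *Hspa1a* probes included, this group had 17 tested probes. Of these, 12 were higher on both arrays, and the median mean ratio was 0.19, or 0.08 with normexp and loess.

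The small heat shock proteins gave the other called genes, 3 of 8. *Hspb6*, also called Hsp20, binds actin and is phosphorylated by cAMP-dependent kinase. Its probe, over 30263126 to 30263269 on chromosome 7, gave 9366 in *Gde5* skKO against 4048 in WT on array 1 and 10324 against 5233 on array 2. The ratios were 1.21 (error 0.23) and 0.98 (error 0.22), or 2.14-fold on average. *Hspb6* has this probe alone, so that no other probe checks it.

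*Hspb1*, mouse Hsp25, caps actin filaments and guards the cytoskeleton under stress. Its probe over 136173684 to 136173871 on chromosome 5 gave 15256 against 9084 on array 1 and 18108 against 10506 on array 2. The ratios of 0.75 and 0.79 (errors 0.22 and 0.22) stood for a 1.70-fold mean difference. The other probe under this name is annotated to chromosome 13, another locus, and was not well above background in any channel.

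*Hspb7*, a heart and muscle protein that binds filamin C, was spotted 10 times per array with the probe from 140696516 to 140696575 on chromosome 4. That probe gave 3052 against 1927 and 3480 against 2004, with mean ratios of 0.66 and 0.80. The SD of the ratio was 0.057 over 10 spots on array 1 and 0.032 over the 8 spots kept on array 2, below the ratio itself on each array, although spots of 1 array share their RNA. The probe from 140696075 to 140696134 was dimmer, at 198 against 136 and 200 against 129, with ratios of 0.54 and 0.63. Its mean ratio with normexp and loess was 0.25 in place of 0.58, and that of the brighter probe was 0.64 in place of 0.73.

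*Cryab*, αB-crystallin, protects desmin in muscle. Its probe from 50508565 to 50508624 on chromosome 9 gave 65814 against 48489 on array 1 and 76904 against 59550 on array 2, with ratios of 0.44 and 0.37. The p-value was 0.0341 on array 1 and 0.0744 on array 2, so it was not called. The other *Cryab* probe, from 50505406 to 50505465, was far dimmer, at 599 against 762 and 650 against 834, and went the other way, with ratios of -0.35 and -0.36 (p-values 0.0951 and 0.0849). *Hspb2*, a partner of *Hspb3* in muscle whose gene lies beside *Cryab*, had ratios of 0.00 and 0.06 in its brighter probe. *Hspb8*, the partner of *Bag3* in the removal of damaged filament proteins, had -0.20 and -0.26. *Hspb3* had -0.08 and 0.05, and *Hspb9*, known from the testis, had 0.13 and -0.15. Among the small heat shock proteins the direction was thus not shared, and the median mean ratio of the 11 probes was 0.11.

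**Figure D3:**
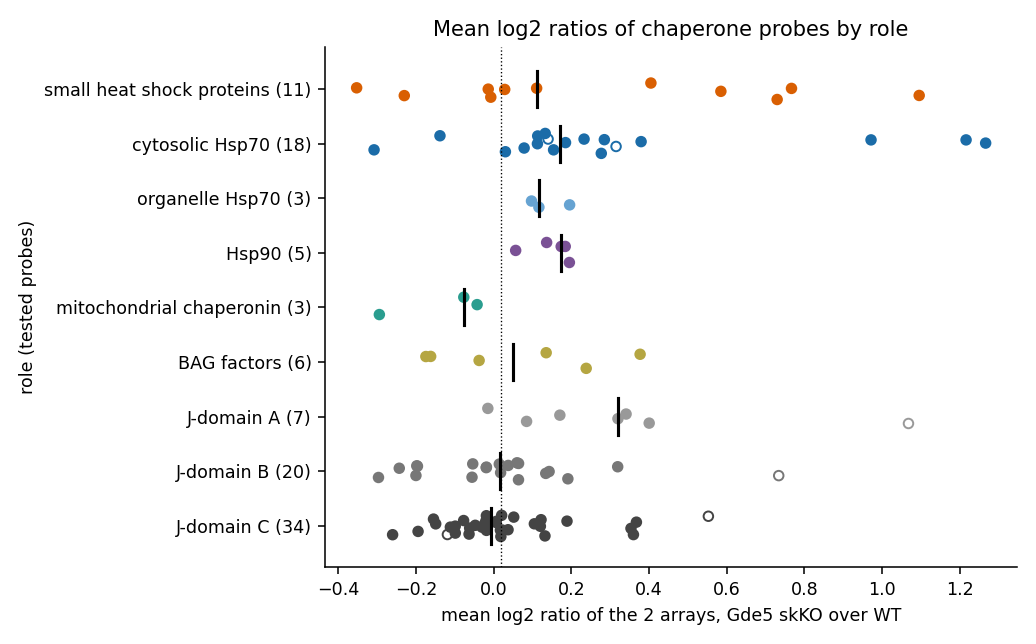
Mean log2 ratio over the 2 arrays (x axis) of each tested probe, by role with the number of probes in brackets. Black bars are the medians of the roles, open points are probes not well above background in at least 1 channel, and the dotted line is the median of all tested probes, 0.02. The small heat shock proteins spread from -0.35 to 1.10 and the cytosolic Hsp70 probes from -0.31 to 1.27, while the 34 J-domain C probes have a median of -0.01.

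No member was called among the other chaperones with ATPase activity. The Hsp70 proteins of the organelles, *Hspa5* (BiP) of the endoplasmic reticulum and *Hspa9* (mortalin) of the mitochondrion, were higher on both arrays in all 3 probes, with mean ratios from 0.10 to 0.20. The cytosolic Hsp90 genes gave ratios of 0.29 and 0.10 for *Hsp90aa1*, the inducible form. *Hsp90ab1*, the constitutive form, had 0.00 and 0.27 in its brighter probe. *Hsp90b1*, the form of the endoplasmic reticulum, had 0.00 and 0.11 in the probe from 86120824 to 86120883 on chromosome 10 and 0.45 and -0.10 in the other. In the mitochondrial chaperonin, *Hspd1* (Hsp60) had ratios of -0.06 and -0.10 in its bright probe and -0.38 and -0.21 in a dimmer one. Its lid *Hspe1* (Hsp10), transcribed from the same promoter region in the other direction, had 0.13 and -0.22.

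None of the 5 *Bag* genes was called. *Bag3*, which joins Hsp70 to small heat shock proteins in muscle, had signals of 6988 against 5543 and 7078 against 5290 in its bright probe from 128337915 to 128337974 on chromosome 7. The ratios were 0.33 and 0.42, and the p-value was under the threshold on array 2 only (0.105 and 0.0431). Its dimmer probe had 0.35 and 0.12. *Bag1* had -0.25 and -0.08, and *Bag5* had -0.28 and -0.07.

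The J-domain proteins made up 61 of the 107 tested probes. None of them was called in either direction, beside 1.49% of all tested probes called higher and 1.58% lower. Of these 61 probes, 14 (23%) were higher on both arrays, 9 (14.8%) lower on both and 38 (62.3%) in opposite directions. Over all tested probes the shares were 29.3%, 24.5% and 46.2%. Type A members, which resemble bacterial DnaJ, had ratios of 0.20 and 0.60 for the bright probe of *Dnaja4*, which is abundant in striated muscle. *Dnaja3*, the mitochondrial member, had 0.52 and 0.17 in its bright probe, and *Dnaja2* had 0.10 and -0.13. The probes of *Dnaja4* and *Dnaja3* each passed the threshold on 1 array only. A dim probe of *Dnaja1*, a cytosolic partner of Hsp70, had the widest gap, with 2.41 and -0.28, and its signals lay between 13.7 and 73.2. The brightest *Dnaja1* probe had 0.26 and -0.09. The next had 0.48 and 0.16 and passed the threshold on array 1 only.

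Among the type B members, *Dnajb4*, a partner of Hsp70, had ratios of 0.22 and 0.42 in its bright probe and 0.19 and 0.20 in the next. Its dim probe had 0.91 and 0.56, which fell to a mean of 0.07 with normexp and loess. *Dnajb1* (Hsp40), the partner that is induced by heat with *Hspa1a*, had -0.23 and -0.36 in its bright probe and -0.13 and 0.39 in a dimmer one. Neither probe was higher on both arrays, and the difference from *Hspa1a* was not tested. *Dnajb12*, of the endoplasmic reticulum membrane, had -0.25 and -0.14. *Dnajb6*, mutated in limb-girdle muscular dystrophy, had ratios between -0.43 and 0.27 over 3 probes. *Dnajb8* passed the threshold in opposite directions, with 0.41 and -0.81, and its signal was the higher of the pair in the Cy5 channel of both arrays.

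The type C members, which share little beyond the J domain, centred on 0. *Dnajc19*, of the mitochondrial import motor, had -0.19 and 0.13 in its bright probe, at signals from 29997 to 36027, and *Dnajc15*, its relative, had 0.05 and -0.09. *Dnajc5*, cysteine string protein of synaptic vesicles, had 0.15 and 0.22 in its bright probe. *Dnajc11* was spotted 10 times and had -0.07 and 0.11, with an SD over spots of 0.12 on array 1 and 0.095 on array 2. A dim *Dnajc19* probe passed the threshold in opposite directions, with 0.71 and -0.95, and its signal was again the higher of the pair in the Cy5 channel. The larger mean ratios in this group came from *Dnajc18*, with a mean of 0.55 from ratios of opposite sign in a dim probe, and *Dnajc2*, with 0.18 and 0.55. That *Dnajc2* probe had a mean of 0.37, and of 0.06 with normexp and loess. A brighter *Dnajc2* probe had 0.17 and -0.07.

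**Figure D4:**
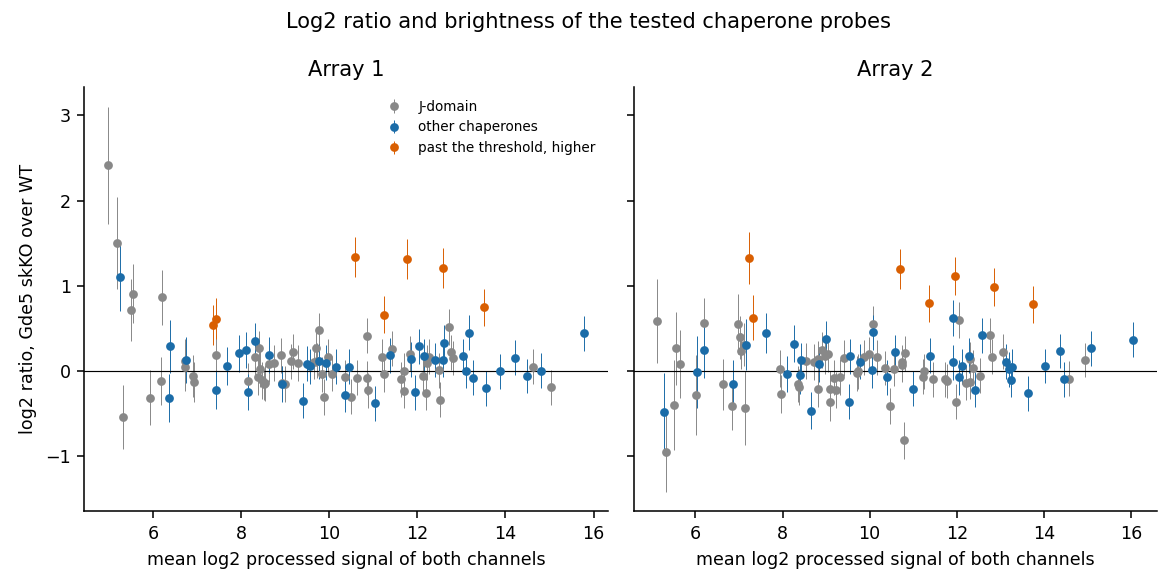
Log2 ratio of *Gde5* skKO over WT (y axis) against the mean log2 processed signal of both channels (x axis) for the tested chaperone probes, one panel per array. Bars are the Feature Extraction error of the ratio. The errors widen at low signal, where array 1 holds a *Dnaja1* probe at 2.41, and the probes called higher (orange) lie above 0 from dim to bright.

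In all, 17 tested members passed the threshold on 1 array only, 9 on array 1 and 8 on array 2, and 10 of them were higher on both arrays. The share of all probes past it on 1 array only was not counted, so no trend of the members is read from these 17. Taking array 1 by itself, 18 members were higher and 0 lower, beside 7.88% and 5.25% of all probes. On array 2 by itself, 13 were higher and 4 lower, beside 7.15% and 6.89%. Among the 100 probes with signal in all 4 channels, the 7 called probes were the only ones with a mean ratio over 0.5 in size. Of those not called, the highest was the bright *Cryab* probe, at 0.40.

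Genes of the same family can be listed on the array under older names. There were 26 such probes, among them *Hsph1* (Hsp110), *Hspa13* and *Bag6*, and 18 of them were tested. None was called higher, and 1 of 3 tested *Bag6* probes was called lower, with -0.75 and -1.23, while the others had -0.04 and 0.53, and 0.03 and 0.05. The mean ratio of the probe called lower was -0.99, and -0.18 with normexp and loess. *Hsph1*, which is induced by heat with *Hspa1a*, had 0.21 and -0.23.

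The heat shock transcription factors and their regulators were not called. Of 7 listed genes 3 were tested, and *Hsf1*, the main activator of heat shock genes, had -0.13 and 0.01 in its brightest probe. *Hsbp1*, which binds and restrains it, had -0.22 and -0.05. Among 25 tested co-chaperones outside the family names, 1 was called, *Fkbp5*, an Hsp90 partner of steroid receptors, which was lower with -1.08 and -1.40, while 2 other *Fkbp5* probes were not called. With normexp and loess its mean ratio was -0.75 in place of -1.24. *Cdc37*, which brings kinases to Hsp90, had -0.18 and 0.14, and *Unc45b*, the myosin chaperone, had 0.22 and 0.08. The median mean ratio of the 41 probes was 0.04. None of the 14 genes of the TRiC chaperonin and prefoldin was called, and their median was 0.04. Among 10 other stress-induced genes, the metallothioneins *Mt2* (0.99 and 0.75) and *Mt1* (0.55 and 0.46 in its brighter probe) were higher, and *Ddit4*, an inhibitor of mTORC1, was lower (-0.84 and -0.91). *Hmox1* (-0.04 and -0.21) and *Serpinh1* (0.08 and 0.12), a collagen chaperone, were not called.

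**Figure D5:**
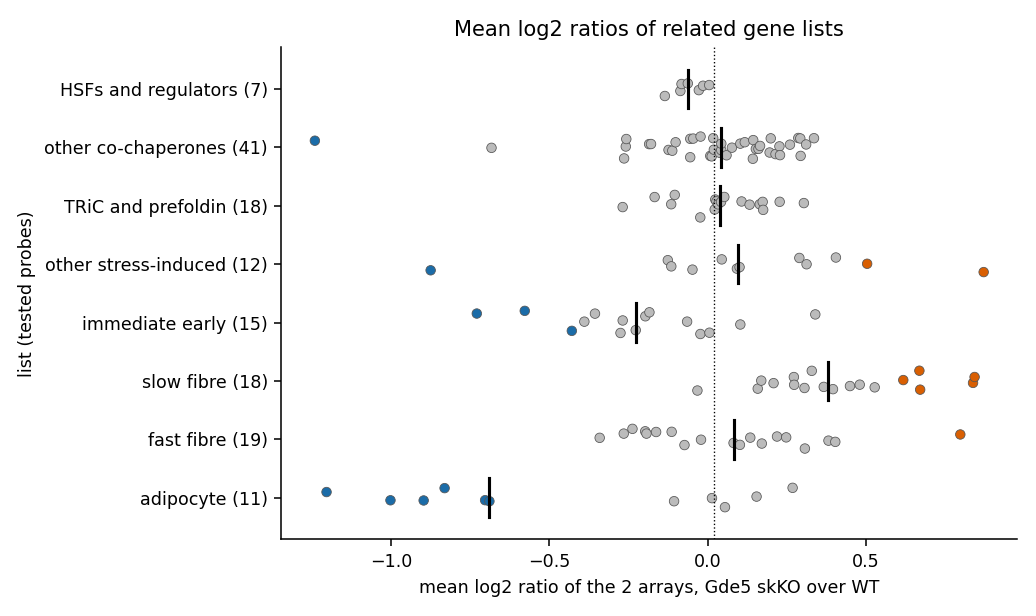
Mean log2 ratio over the 2 arrays (x axis) of each tested probe in 8 related gene lists, with the number of probes in brackets. Orange probes were called higher, blue probes lower and grey probes not, black bars are list medians, and the dotted line is the median of all tested probes. The slow fibre probes have a median of 0.38 and the adipocyte probes one of -0.69, while HSFs, co-chaperones and TRiC lie near 0.

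Other gene groups differed between the samples as well. Of 11 slow fibre genes 4 were called higher and none lower, with *Myl2* at 0.80 and 0.87, *Sln* at 1.00 and 0.68, *Casq2* at 0.58 and 0.76, and *Tnni1* at 0.64 and 0.70 in its brighter probe. Their median mean ratio was 0.38, and their summed signal over the brightest probe of each gene was 150119 in *Gde5* skKO against 105956 in WT on array 1 and 146895 against 108028 on array 2. The slow myosin *Myh7* was not called, with 0.30 and 0.36 in its brighter probe. Of 12 fast fibre genes *Myh2* alone was called, higher with 0.83 and 0.77 in 1 of its probes. Its brighter probes were not called, with 0.26 and 0.01, and 0.23 and 0.26. By qPCR, the paper found the mRNA of muscle fibre types comparable between the genotypes. The fibre type primers it lists are for the myosins *Myh7*, *Myh2*, *Myh1* and *Myh4*. None is listed for *Myl2*, *Sln*, *Casq2* or *Tnni1*. Several small heat shock proteins are known to be more abundant in slow than in fast muscle. Whether fibre makeup has a part in the ratios of *Hspb1*, *Hspb6* and *Hspb7* was not tested, and in whole muscle more cells of a type and more RNA per cell cannot be told apart. Of 7 adipocyte markers 5 were called lower, *Adipoq*, *Cfd*, *Cidec*, *Plin1* and *Retn*, with mean ratios from -1.20 to -0.69. With normexp and loess *Plin1* had -0.33, the *Retn* probes had -0.34 and -0.36, and the median of the list was -0.33 in place of -0.69. *Fabp4* and *Lpl* were not called, and the summed signal of the list was 64013 in *Gde5* skKO against 61523 in WT on array 1 and 60533 against 63402 on array 2. Of 13 immediate early genes, which respond to stress within minutes, 3 were called lower and none higher, *Dusp1* (-0.51 and -0.65), *Egr2* (-0.43 and -0.43) and *Ier3* (-0.53 and -0.92), and the median of the list was -0.23. With normexp and loess the mean ratio of *Egr2* was -0.23 in place of -0.43 and that of *Ier3* -0.25 in place of -0.73. The part of these groups in the ratios of the chaperones was not tested. No gene was called among the markers of endothelium, fibroblast and tendon, leukocyte, erythrocyte, nerve and Schwann cell, smooth muscle, testis and liver. *Prm1* and *Tnp1* were measured among the testis markers, and *Alb* and *Fgb* among those of liver, at summed signals from 1290 to 1362 for the testis list and from 192 to 350 for the liver list.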

How the data were processed

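GAS muscle RNA of WT and *Gde5* skKO mice was hybridized to 2 Agilent arrays with swapped dyes, which lie on 1 slide and come from 1 scan. Per the labels and the file headers, Feature Extraction 9.5 (9.5.3.1) read the scans. The deposited files hold for every spot a log10 ratio, Cy5 divided by Cy3, corrected for background and dye, a p-value from the software's error model, intensity values of each channel and its background, and spot marks stored as a score of 0 or 1. The series table the authors deposited repeats the log10 ratio.

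Here ratios were taken to log2, those of array 2 turned in sign so that all read *Gde5* skKO over WT, and spots of the same probe averaged. Left out were control spots, those marked as outliers (164 and 200) and 7 spots on array 1 whose local background was over 1.5 times their signal. All 131 member probes were named through RefSeq, 108 by accession and 23 by symbol. Probe positions come from the array annotation (mm8), for which no gene models were used, so exons are not stated. Member genes, lists and tests were chosen with earlier results of these data known, and lists are described by counts and medians only.

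Genes named are every called member, the 3 brightest and the 2 with the largest ratio in each role, and from other lists the called members or the 2 brightest. Others named, such as *Dnajb6*, *Hspa4*, *Hspbap1*, *Dnajc11* and *Bag6*, were chosen after their values were seen. Alternatives were normexp (offset 50) with loess, loess alone, the series table, other thresholds and filters, each array alone, the methods' t-test on channel values and the moderated test of limma. The tools were R 4.3.3 with limma 3.58.1, and Python 3.11.15 with matplotlib 3.10.9, scipy 1.17.1, pandas 2.3.3 and numpy 2.4.6. The steps were tested on simulated data.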

Additional observations from a re-analysis of the deposited data

How the results depend on the processing

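All 4 member genes were called higher with a p-value under 0.01 (5 probes, beside 0.676% of all probes), and none lower, beside 0.812%. The cause of the shifts below was not tested. The count of 7 probes called higher became 4 with Benjamini-Hochberg adjustment within each array, beside 0.325% of all probes. There *Hspb7* was no longer called and *Hspa1a*, *Hspb1* and *Hspb6* were. The count was 14 by limma's unadjusted p, beside 4.07% of all probes. With the brightest probe of each gene, where the genes were tested by 1 probe each, the count was 4, beside 1.58%. After adjustment limma called 5, for the same 4 genes, but both this test and the next assume separate RNA on the arrays. The methods' t-test called 10 higher before adjustment, beside 4.47% of all probes, and 0 after it, over all 19094 probes as well. Probes called lower, 0 in the report, were 3 with limma unadjusted and 1 with the methods' t-test, beside 4.02% and 3.93% of all probes. There was 1 when probes under older names were counted, beside 1.58%. That alternative was added after the data were seen and also gave 1 gene called lower. Without array 1 or without array 2, the probes called higher were 13 and 18, the probes called lower 4 and 0, the genes called higher 10 and 14, and the genes called lower 4 and 0. Over all probes, 7.15% were called higher and 6.89% lower without array 1, and 7.88% and 5.25% without array 2. The 2 probes in opposite directions became 1 with signal required in all channels and 0 at a p-value under 0.01. The median of members, 0.06, was 0.0213 with normexp and loess, 0.0325 without background correction, 0.0337 without a filter on dim probes, 0.0444 with the brightest probes, and 0.0772 and 0.0962 on array 2 and array 1 alone. All 7 called probes kept their direction in every setting that recomputed their ratio. The dim probes of *Hspa1a* and *Hspb7* were the 2 that moved by over 1.5 times, as the report gives. With both arrays from 1 slide, low signal limits what can be told for the 7 tested members that were dim in a channel and the 23 that were not tested.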
